A study of Mus musculus with 6 samples.

Results

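Collagens that do not build the thick fibrils of connective tissue were measured in nuclei of the mouse tibial periosteum before and after fracture. They comprised 8 genes of the 30406 listed in every library, taken by symbol from a list of collagen types, which was drawn up with earlier results of these data known: the FACIT genes Col12a1, Col14a1 and Col16a1 (fibril-associated collagens with interrupted triple helices), the network-forming type VIII genes Col8a1 and Col8a2, and the type VI genes Col6a1, Col6a2 and Col6a3. All 8 were listed in all 6 libraries. FACIT collagens lie on the surface of collagen fibrils and link them to other matrix molecules, type VI collagen is assembled from the chains of Col6a1, Col6a2 and Col6a3 into beaded microfilaments close to cells, and type VIII collagen is a short-chain collagen that forms open networks and is known from vessel walls and from the basement membrane of the cornea. In the periosteum, the fibrous sheath of bone that supplies the cells of the callus, types VI, XII and XIV belong to the matrix between and around the fibrils.

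The series holds 6 single-nucleus RNA libraries: 2 of uninjured periosteum, 2 of periosteum with hematoma at day 3 after an open tibial fracture that was not stabilised, and 1 each at days 5 and 7. The mice were C57BL6 in the labels and C57BL/6ScNj in the study's methods, 12 weeks old, of both sexes and without a transgene. For the fracture, mice were given ketamine, medetomidine, buprenorphine, atipamezole and further analgesic injections, so that effects of fracture and of these drugs cannot be told apart. The tibias of 4 mice made an uninjured sample, and those of 4 to 9 mice an injured one at days 3, 5 and 7, so that each library is a pool. Nothing in the labels says that the 2 libraries of a group came from separate mice, so p-values measure the spread between libraries only. Bone marrow was flushed out before the periosteum was scraped from the cortex, and the nuclei were sorted by a DNA stain.

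Each library was deposited as a matrix of raw counts, the number of unique molecular identifiers (UMIs) of each gene in each nucleus barcode. The libraries held 655 to 4712 barcodes and 1499281 to 29796296 UMIs, with medians of 892 to 2806 UMIs per barcode. Their gene lists differed, with 31055 genes in both uninjured libraries and day 3 library 2. Day 3 library 1 and day 7 had 32285 genes and day 5 had 32287. Only genes listed in every library were used, and the part of these lists in differences between libraries was not tested. After filters on genes per nucleus and on mitochondrial and ribosomal UMIs, and removal of muscle fibre nuclei, clusters were named from marker genes. The names end in -like because the clusters were rebuilt and may hold other nuclei than those of the study. Clusters of 225 and 303 nuclei stayed unnamed. The former was of low depth, and the latter had the muscle markers Ttn and Neb among its top genes. Levels are given as UMIs of a gene per 1000000 UMIs of the nuclei concerned (CPM), with exact 95% Poisson intervals where given, which cover counting error only. "Stromal" is used for chondrocyte-like, osteoblast-like, SSPC-like (skeletal stem/progenitor), IIFC-like (injury-induced fibrogenic) and fibroblast-like nuclei together, 2459 in all, with 89 and 300 in the uninjured libraries, 118 and 255 on day 3, 1004 on day 5 and 693 at day 7. Of the stromal nuclei, 6 and 15 were IIFC-like before fracture, 52 and 90 on day 3, 384 on day 5 and 193 on day 7, so the stromal sums mix populations unequally between libraries. For this reason fibroblast-like and SSPC-like nuclei were also summed on their own, 71, 201, 58, 132, 287 and 191 nuclei in the same order of libraries. Barcodes shared between any pair of libraries numbered 0 to 7.

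The 8 genes lie on chromosomes 1, 4, 9, 10, 15 and 16 of GRCm38 in the mouse annotation of GENCODE release M21. Col12a1 covers chr9:79598991-79718831 on the minus strand and Col14a1 chr15:55307750-55520803 on the plus strand, the longest of the set at 213 kb. Col16a1 (chr4:130047840-130099283) and Col8a2 (chr4:126286793-126314330) both lie on chromosome 4, and Col8a1 covers chr16:57624258-57754737. Col6a2 (chr10:76595762-76623630) and Col6a1 (chr10:76708792-76726168) are neighbours on the minus strand with 85.2 kb between them, whereas Col6a3 (chr1:90765923-90843971) is on another chromosome. Reads of introns and exons were counted, so long genes can gain UMIs from introns, and levels are compared between libraries and populations but not between genes. Opposite-strand transcripts overlap Col12a1 and Col14a1, and Gm36970 overlaps Col6a3 on its own strand. In stromal nuclei 4930562D21Rik, which overlaps Col12a1, had 20 UMIs against 14371 of Col12a1.

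Levels of Col6a1, Col6a2 and Col6a3 went together. Over 49 units, a unit being the nuclei of 1 population in 1 library with at least 20 nuclei, Pearson's r of log2(CPM + 10) was 0.82 to 0.88 among the 3 genes, a description, because the units share libraries and depth. These were the highest values among the 8 genes, but with units of at least 50 nuclei the order changed, with 0.91 for Col12a1 and Col16a1 and 0.81 for Col6a1 and Col6a3. Promoters of the type VI genes are shown because their products join in 1 protein, from 250 bases before to 50 bases after the start site in the RefSeq table of GRCm38.p6, 5′ to 3′ on the gene's strand. Capitals mark TGACTCA (the AP-1 motif), GGGCGG (a GC box) and GGGAGGG (a G-rich run), read on both strands, where runs may overlap. For Col6a2 the table has a pair of start sites, and the one at the annotated gene start is shown.

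Col6a1, chr10:76725995-76726294, minus strand: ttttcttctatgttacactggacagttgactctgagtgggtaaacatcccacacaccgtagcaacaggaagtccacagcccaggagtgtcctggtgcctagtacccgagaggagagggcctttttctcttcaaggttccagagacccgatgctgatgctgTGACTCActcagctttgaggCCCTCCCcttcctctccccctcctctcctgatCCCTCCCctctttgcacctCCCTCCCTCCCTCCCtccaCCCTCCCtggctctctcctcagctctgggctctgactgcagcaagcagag
Col6a2, chr10:76623581-76623880, minus strand: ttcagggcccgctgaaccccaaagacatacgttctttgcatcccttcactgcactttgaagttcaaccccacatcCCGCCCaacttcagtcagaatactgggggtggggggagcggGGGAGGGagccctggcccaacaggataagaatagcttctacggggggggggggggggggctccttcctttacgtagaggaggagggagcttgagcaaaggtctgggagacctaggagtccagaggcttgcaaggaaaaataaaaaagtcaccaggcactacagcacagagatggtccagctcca
Col6a3, chr1:90843922-90844221, minus strand: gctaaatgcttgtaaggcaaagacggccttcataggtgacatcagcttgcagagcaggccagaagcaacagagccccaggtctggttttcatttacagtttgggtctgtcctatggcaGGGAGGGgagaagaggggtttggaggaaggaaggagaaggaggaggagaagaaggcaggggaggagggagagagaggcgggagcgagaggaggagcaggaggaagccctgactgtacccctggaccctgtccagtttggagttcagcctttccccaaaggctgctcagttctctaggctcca

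GGGAGGG or its complement was found in all 3 windows, at 6 places in that of Col6a1 and at 1 place in each of the others. Promoters of 6 of the 8 genes were matched in the table, 7 windows in all, and 6 of the 7 held this motif, against 22.0% of the 32851 promoters in the table. TGACTCA was in 1 of the 7 windows, that of Col6a1, 90 bases before the start site, against 1709 of all 32851 promoters. GGGCGG was in 5 of 7 against 35.7%, CCAAT in 1 of 7 against 37.4% and TATAAA in 0 of 7 against 13.6%. A match describes the letters of the window and not a bound site.

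The 8 genes were highest in different populations. Pooling weights libraries by their UMIs, and 1004 of the 2459 stromal nuclei were from the single day 5 library. Pooled over libraries, Col12a1 was highest in osteoblast-like nuclei, Col14a1 in SSPC-like, Col8a1 and Col8a2 in tendon-like, Col6a1 and Col6a2 in chondrocyte-like, and Col16a1 and Col6a3 in IIFC-like nuclei. IIFC-like nuclei were in 1 of the top 3 places for all 8 genes. Immune-like nuclei were used for comparison, on the untested assumption that they hold little of these collagens. They had at most 45.2 CPM of any of them with libraries pooled. This level differed between libraries, for Col12a1 from 11.1 CPM in uninjured library 2 to 26.0 and 30.3 on day 3, 101 on day 5 and 161 at day 7. Where these UMIs came from was not tested. Populations were defined by clustering, so their levels are described without a test, and the genes described were not among the features used to cluster.

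**Figure D1:**
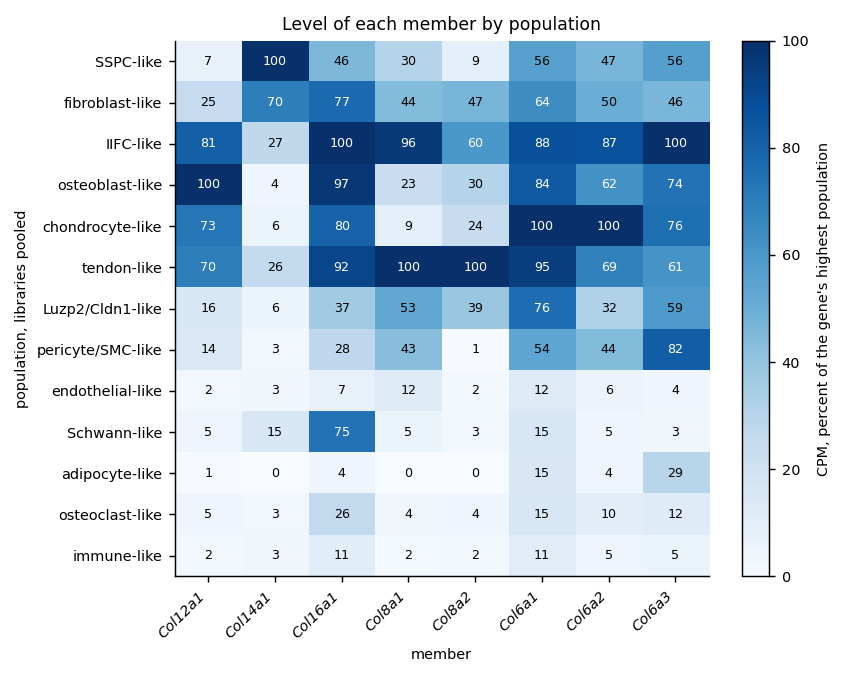
Level of each of the 8 genes (columns) in each named population with libraries pooled (rows), as a percent of that gene's highest population. Col14a1 has its highest level in SSPC-like nuclei, where Col12a1 is low, and the type VI genes are spread over all stromal populations and pericyte/SMC-like nuclei.

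At day 3, libraries were compared with uninjured ones on UMIs summed over stromal nuclei, with edgeR's quasi-likelihood test over all genes and an adjusted p under 0.05 as the threshold for a call. This addresses whether fracture changes the collagen genes of the stroma. Of the 8 genes 0 passed, against 7.90% of the 9313 genes tested, and DESeq2 also called 0. At an unadjusted p under 0.05 the count was 1 of 8 (Col12a1), against 20.7% of all genes, and the libraries of the groups did not overlap for 2 of 8, Col12a1 and Col6a1, against 50% of all genes. The median log2 fold change of the 8 was 0.50 and that of all genes tested 0.09.

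Within fibroblast-like and SSPC-like nuclei, 1 of the 8 genes, Col12a1, was called higher on day 3, against 3.45% of the 7996 genes tested that were called higher. Libraries of the groups did not overlap for 5 of 8 genes, against 46.7% of all genes. These were Col12a1, Col16a1 and Col8a2, higher on day 3, and Col6a1 and Col6a2, lower. With days 5 and 7 added to day 3, the 4 fracture libraries differed from the uninjured ones past the threshold for 0 of 8 genes in stromal nuclei, against 6.06% of 11363 genes, by edgeR's test. At an unadjusted p under 0.05 there were 4 of 8 (Col12a1, Col16a1, Col8a1 and Col8a2), all higher after fracture, against 20.5% of all genes. DESeq2 called 1 in that comparison, Col12a1 (log2 fold change 1.99, adjusted p 0.00430), and edgeR without a filter on low counts called 3, Col12a1, Col8a1 and Col8a2. Without that filter the calls over all genes also rose well above the 689 of the main test. The 3 calls are therefore not read as a result about these genes.

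**Figure D2:**
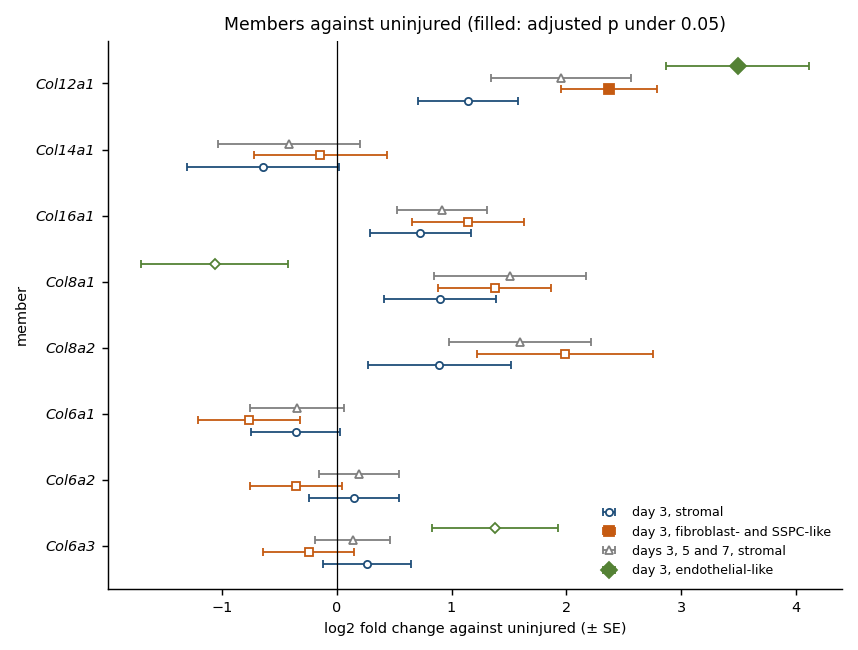
Log2 fold change against uninjured libraries, with its standard error, of each gene in stromal nuclei on day 3, in fibroblast-like and SSPC-like nuclei on day 3, in stromal nuclei of days 3, 5 and 7 together and in endothelial-like nuclei on day 3, with filled symbols for an adjusted p under 0.05. Only 2 symbols are filled, both of Col12a1, at 2.37 in fibroblast-like and SSPC-like and 3.49 in endothelial-like nuclei.

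Type XII collagen, encoded by Col12a1, is a FACIT collagen of dense connective tissue, tendon and bone surfaces. In fibroblast-like and SSPC-like nuclei Col12a1 stood at 43.7 and 77.7 CPM in the uninjured libraries, 260 and 432 on day 3, 776 on day 5 and 670 at day 7. The 4 fracture libraries were all above both uninjured ones, and the intervals of uninjured library 2 (61.9 to 96.4) and day 3 library 1 (191 to 344) did not overlap. The mean was 60.7 ± 24.1 CPM (SD, n = 2) in uninjured and 346 ± 122 (SD, n = 2) in day 3 libraries, and Col12a1 rose by a log2 fold change of 2.37 ± 0.42 (SE; adjusted p 0.00225, edgeR's quasi-likelihood test). Without integration no cluster named fibroblast-like or SSPC-like held day 3 nuclei, so that alternative could not be run. The call was made under every alternative that was run, leaving out each library in turn included, with log2 fold changes between 2.07 and 2.96. Among libraries made with Cell Ranger 7.1.0, uninjured library 2 and both of day 3, the log2 fold change was 2.07. Of these, day 3 library 1 had a longer gene list than the others. Uninjured library 1 and days 5 and 7 were made with version 6.0.0.

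Both populations in that sum went the same way. The study, however, reported that cells with SSPC markers were missing at its earliest time point after fracture. Without integration the SSPC-like cluster held 0 and 0 day 3 nuclei, so SSPC-like nuclei of day 3 rest on the integrated clusters. Whether these nuclei are the same population as the uninjured SSPC-like nuclei was not tested. In fibroblast-like nuclei Col12a1 was at 0 and 122 CPM in uninjured libraries (0 of 53340 and 68 UMIs), 290 and 512 on day 3, 907 on day 5 and 784 at day 7. In SSPC-like nuclei it was at 81.8 and 29.3 CPM in uninjured libraries, 186 and 197 on day 3, 356 on day 5 and 335 at day 7, with 5 to 126 UMIs behind each value and 18 nuclei in day 3 library 1. Beside this, the 5 IIFC markers (Postn, Aspn, Lox, Tll1 and Tnc), all detected in every library, summed to 315 and 598 CPM in fibroblast-like and SSPC-like nuclei of uninjured libraries, 2110 and 2387 on day 3, 5158 on day 5 and 2596 at day 7. The 6 osteoblast markers summed to 96.1 and 194 CPM in uninjured and 1217 and 881 in day 3 libraries, and the 6 immune markers to 17.5 and 8.43 against 146 and 305. The part of these in the Col12a1 result was not tested.

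Osteoblast-like nuclei already held Col12a1 at a high level before fracture, mainly seen in uninjured library 2. They had 2689 CPM in uninjured library 2 (72 nuclei), 2433 in day 3 library 2 (27 nuclei), 2309 on day 5 and 2147 at day 7, and the remaining libraries had 6 such nuclei each. These had 1012 CPM in uninjured library 1 (7 UMIs) and 4056 in day 3 library 1 (94 UMIs). IIFC-like nuclei had 1575 and 1108 CPM in the uninjured libraries, where there were 6 and 15 of them with 8 and 36 UMIs of Col12a1, and 538 and 897 CPM on day 3, 2336 on day 5 and 2062 at day 7. Pooled, the highest were osteoblast-like (2406 CPM, interval 2312 to 2503), IIFC-like (1955, 1910 to 2001), chondrocyte-like (1757, 1692 to 1824) and tendon-like nuclei (1679, 1608 to 1752). Of these, chondrocyte-like and tendon-like nuclei are not apart beyond counting error. Fibroblast-like nuclei followed (599), then Luzp2/Cldn1-like (374) and pericyte/SMC-like (341) and, lower still, SSPC-like nuclei (180). The unnamed clusters had 473 and 317 CPM. IIFC-like nuclei held 40.6% of the Col12a1 UMIs of all populations with libraries pooled, and 5471 of these 7194 UMIs came from day 5. By library the share was 6.35% and 4.08% in uninjured libraries, 29.0% and 26.9% on day 3, 45.9% on day 5 and 43.3% at day 7.

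Over all stromal nuclei Col12a1 was at 167 and 439 CPM in the uninjured libraries, 616 and 779 on day 3, 1885 on day 5 and 1349 at day 7. Each fracture library was above each uninjured one, but the log2 fold change of 1.14 ± 0.44 (SE) at day 3 did not pass (adjusted p 0.159), and without uninjured library 1, the only one made with Cell Ranger 6.0.0 in that test, it was 0.59. The share of fibroblast-like and SSPC-like nuclei with a Col12a1 UMI, after each nucleus was thinned at random to 500 UMIs, was 1.41% and 3.98% in uninjured libraries, 8.62% and 15.2% on day 3, 20.6% on day 5 and 16.9% at day 7, with 2 nuclei left out as too shallow. Without thinning the shares were 4.23%, 13.9%, 44.8%, 56.8%, 65.2% and 44.0%. Immune-like nuclei thinned the same way had a Col12a1 UMI in 3.84% of cases (13.4% unthinned) with libraries pooled, most of them from fracture libraries. By library the thinned immune-like share was 0% in uninjured library 2 (0 of 64 nuclei, which allows up to 4.69%), 1.45% and 2.26% on day 3, 6.62% on day 5 and 5.88% at day 7, each below the share in fibroblast-like and SSPC-like nuclei of the same library. Median depths were 1159 to 5992 UMIs per nucleus over libraries in fibroblast-like and SSPC-like and 564 to 4682 in immune-like nuclei.

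Type XIV collagen, encoded by Col14a1, is the FACIT collagen closest to type XII in structure. Its populations were different ones. Pooled, Col14a1 was highest in SSPC-like nuclei (873 CPM, interval 824 to 925), then in fibroblast-like nuclei (609, 581 to 638), with IIFC-like (238) and tendon-like nuclei (224) lower and not apart beyond counting error, and it was at 36.1 CPM in osteoblast-like and 55.2 in chondrocyte-like nuclei, where Col12a1 was high. SSPC-like nuclei held 25.1% of its pooled UMIs and fibroblast-like nuclei 38.0%. By library the SSPC-like share was 77.8% and 55.8% in uninjured libraries, 16.1% and 23.8% on day 3, 16.8% on day 5 and 20.7% at day 7. Over the 49 units r between Col12a1 and Col14a1 was 0.28, the lowest for Col12a1 with any of the other genes.

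**Figure D3:**
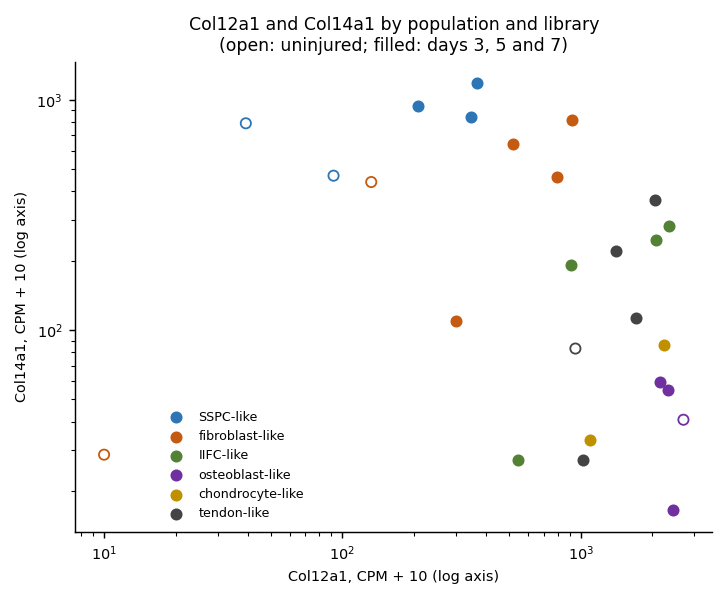
Col14a1 against Col12a1 in tendon-like, chondrocyte-like, osteoblast-like, SSPC-like, IIFC-like and fibroblast-like nuclei, 1 point per library with at least 20 such nuclei, both as CPM + 10 on log axes, open for uninjured libraries. SSPC-like nuclei lie at the upper left, osteoblast-like and chondrocyte-like nuclei at the lower right, and fibroblast-like nuclei of days 5 and 7 are high on both axes.

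In fibroblast-like and SSPC-like nuclei Col14a1 was at 253 and 598 CPM in uninjured libraries, 97.4 and 709 on day 3, 897 on day 5 and 549 at day 7. The day 3 libraries differed from each other by 7.28 times, more than counting error allows (57.7 to 154 against 657 to 763), and they lay on either side of both uninjured ones. The log2 fold change was -0.14 ± 0.58 (SE; adjusted p 0.957) and its sign rested on single libraries. Without day 3 library 2 Col14a1 was called lower (-1.99, adjusted p 0.00515), and without day 3 library 1 it was 0.50 (adjusted p 0.844). The same held over stromal nuclei, at 220 and 505 CPM in uninjured libraries, 54.4 and 449 on day 3, 386 on day 5 and 229 at day 7, where leaving out day 3 library 2 gave -2.60 (adjusted p 0.000175). SSPC-like nuclei alone showed the split too, with 458 and 781 CPM in uninjured libraries, 93.0 and 929 on day 3, 1171 on day 5 and 829 at day 7.

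Type XVI collagen, encoded by Col16a1, is a FACIT collagen of many connective tissues at low abundance. It was at 45.5 and 89.5 CPM in stromal nuclei of uninjured libraries, 77.7 and 171 on day 3, 139 on day 5 and 150.0 at day 7. In fibroblast-like and SSPC-like nuclei it was at 52.4 and 52.5 CPM in uninjured libraries, 64.9 and 159 on day 3, 118 on day 5 and 154 at day 7. There the 4 fracture libraries were all above the uninjured ones, with a log2 fold change at day 3 of 1.14 ± 0.49 (SE; adjusted p 0.209). Pooled, its levels in IIFC-like (163 CPM, interval 151 to 177), osteoblast-like (159, 135 to 185) and tendon-like nuclei (150, 129 to 172) were not apart beyond counting error, and SSPC-like nuclei had 74.5 CPM. Its r with Col12a1 over the units was 0.80.

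Type VIII collagen has chains encoded by Col8a1 and Col8a2. Col8a1 was at 333 and 325 CPM in stromal nuclei of the uninjured libraries, 259 and 1024 on day 3, 1866 on day 5 and 565 at day 7. Day 3 library 1 lay below both uninjured libraries and day 3 library 2 above them, so the groups overlapped. The log2 fold change at day 3 was 0.90 ± 0.48 (SE; adjusted p 0.340) in stromal nuclei and 1.37 ± 0.49 (SE; adjusted p 0.116) in fibroblast-like and SSPC-like nuclei, where the levels were 271 and 299 CPM in uninjured libraries, 298 and 1222 on day 3, 1390 on day 5 and 720 at day 7. Without day 3 library 1 Col8a1 was called higher in both, at 1.51 (adjusted p 0.0245) and 1.91 (adjusted p 0.00375). The day 3 libraries differed by 4.11 times in fibroblast-like and SSPC-like nuclei.

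In IIFC-like nuclei Col8a1 was highest at day 5, with 254 and 827 CPM on day 3, 3123 on day 5 and 1047 at day 7. The uninjured libraries had 1378 and 61.5 CPM, from 7 and 2 UMIs in 6 and 15 such nuclei, so the level before fracture is not settled. Pooled, tendon-like (2372 CPM, interval 2288 to 2458) and IIFC-like nuclei (2285, 2237 to 2335) were not apart beyond counting error. Luzp2/Cldn1-like (1258), fibroblast-like (1038) and pericyte/SMC-like nuclei (1011) followed. IIFC-like nuclei held 43.9% of the pooled Col8a1 UMIs, and 7315 of these 8409 UMIs came from day 5. By library the share was 3.38% and 0.0858% in uninjured libraries, 34.6% and 20.0% on day 3, 57.2% on day 5 and 48.7% at day 7. Osteoblast-like (542) and chondrocyte-like nuclei (220) were lower, unlike for Col12a1. The tendon-like value rests on unequal libraries, with 0 UMIs in uninjured library 1 (7 nuclei) and 4268 CPM in uninjured library 2 (52 nuclei). Tendon-like nuclei had 326 and 1513 CPM on day 3, 2640 on day 5 and 912 at day 7.

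Col8a2 was sparse. In stromal nuclei it had 1 and 29 UMIs in the uninjured libraries, 8 and 87 on day 3, 458 on day 5 and 92 at day 7, or 7.58, 22.6, 20.7, 48.4, 85.7 and 59.98 CPM. In fibroblast-like and SSPC-like nuclei it was at 0 and 11.2 CPM in uninjured libraries and 32.5 and 41.0 at day 3 (log2 fold change 1.99 ± 0.77, adjusted p 0.153), then 94.1 on day 5 and 75.5 at day 7. All 4 fracture libraries were above both uninjured ones. Tendon-like nuclei were highest at 155 CPM (interval 134 to 178), then IIFC-like (93.2) and fibroblast-like nuclei (72.3). The chains parted in the vessel wall, where pericyte/SMC-like nuclei had 1011 CPM of Col8a1 and 1 UMI of Col8a2 in 246 nuclei, and endothelial-like nuclei had 296 CPM of Col8a1 and 2.85 of Col8a2. Immune-like nuclei, for comparison, had 36.4 and 3.18 CPM, so Col8a2 was no higher in either vascular population than in immune-like nuclei and Col8a1 was.

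**Figure D4:**
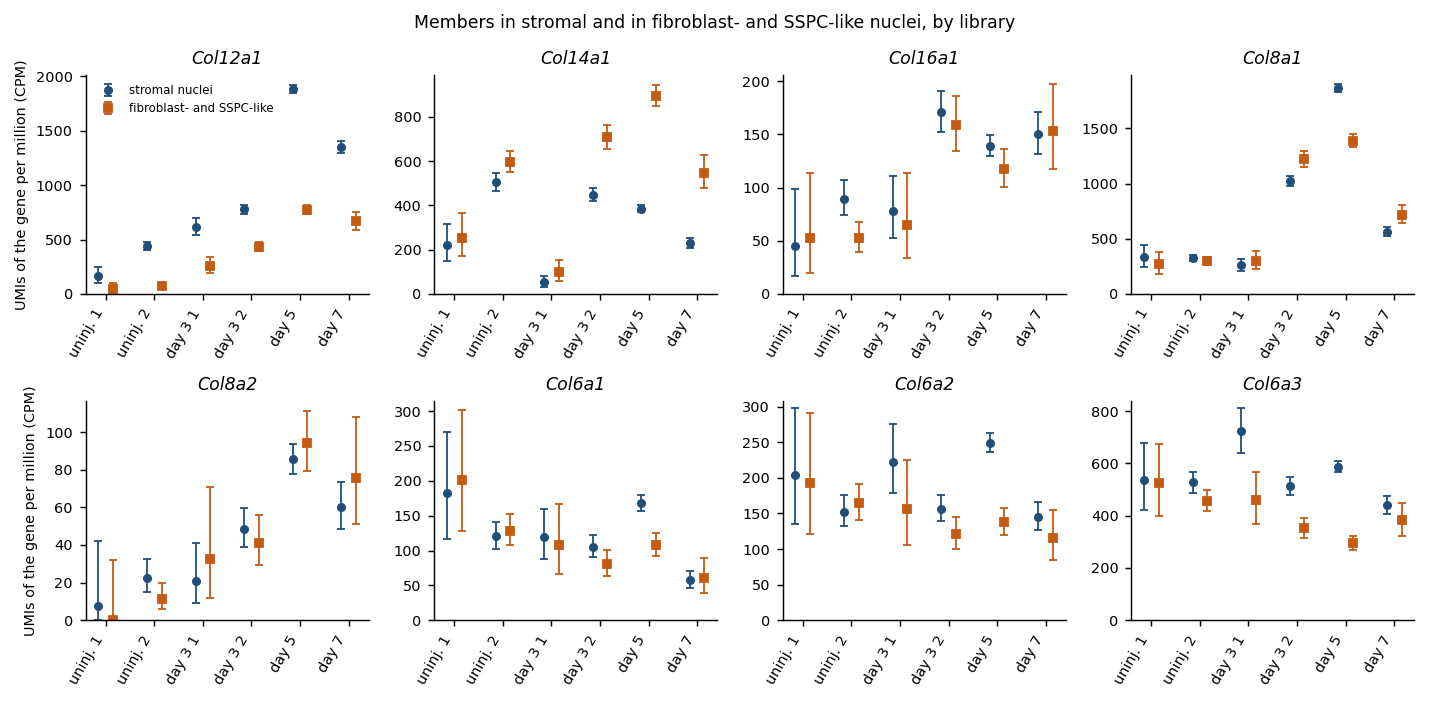
CPM of each gene in each library, in stromal nuclei (circles) and in fibroblast-like and SSPC-like nuclei (squares), with exact 95% Poisson intervals of counting error. Col12a1 lies higher in every fracture library than in the uninjured ones, Col14a1 and Col8a1 differ widely between the day 3 libraries, and Col6a2 and Col6a3 vary less over libraries than these.

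In stromal nuclei the type VI genes had the smallest range over libraries among the 8 genes. Col6a3 was at 538 and 528 CPM in uninjured libraries, 723 and 512 on day 3, 588 on day 5 and 440.1 at day 7. Col6a2 was at 205 and 153 CPM, then 223 and 157, 250 and 145, and Col6a1 at 182 and 121 CPM, then 119 and 106, 168 and 57.4, in the same order of libraries. None of the 3 was called by edgeR in stromal or in fibroblast-like and SSPC-like nuclei, where 0 had an unadjusted p under 0.05 and DESeq2 called 0, and their log2 fold changes in stromal nuclei were -0.36 ± 0.39 (Col6a1), 0.15 ± 0.39 (Col6a2) and 0.26 ± 0.38 (Col6a3).

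In fibroblast-like and SSPC-like nuclei Col6a1 was at 201 and 128 CPM in uninjured libraries, 108 and 80.9 on day 3, 108 on day 5 and 60.4 at day 7. Col6a3 was at 524 and 456 CPM, then 460 and 352, 294 and 383. The fracture values of Col6a1 all lay below the uninjured ones and those of Col6a3 overlapped them, with log2 fold changes at day 3 of -0.76 ± 0.45 (adjusted p 0.415) and -0.24 ± 0.39 (adjusted p 0.859). Pooled, Col6a1 was highest in chondrocyte-like nuclei (170 CPM, interval 150 to 192), without being apart from tendon-like (161) and IIFC-like nuclei (149), and Col6a2 in chondrocyte-like (287, 261 to 315) and IIFC-like nuclei (251, 235 to 268). This order differed between days, with Col6a2 at 377 CPM in chondrocyte-like and 281 in IIFC-like nuclei on day 5 but 121 and 194 at day 7, and Col6a1 at 230 and 174 on day 5 but 53.4 and 64.8 at day 7. Col6a3 was highest in IIFC-like nuclei (747, 720 to 776).

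Pericyte/SMC-like nuclei, the mural cells of vessels, came second for Col6a3 (614 CPM, interval 565 to 666). By library they had 97.8 and 285 CPM in uninjured libraries, 691 and 1081 on day 3, 1111 on day 5 and 693 at day 7, from 16, 94, 6, 83, 342 and 32 UMIs. The fracture libraries were all above the uninjured ones, but the day 3 libraries held 4 and 9 such nuclei, under the minimum of 20, and no test was made. Col6a2 was at 24.5 and 57.5 CPM in uninjured libraries, 0 and 104 on day 3, 260 on day 5 and 152 at day 7. In the same nuclei the 6 pericyte/SMC markers summed to 9397 and 9991 CPM in uninjured libraries, 1843 and 6254 on day 3, 3662 on day 5 and 4005 at day 7, and the 25 stromal markers to 880 and 1538 CPM, 1728 and 2163, 4172 and 2295. The pericyte/SMC markers were lower and the stromal markers higher in each fracture library than in either uninjured one, as Col6a3 was higher, and their part in it was not tested.

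Endothelial-like nuclei were tested at day 3 as well, 213 and 258 uninjured nuclei against 39 and 67. Of the 8 genes 3 passed the filter on low counts (Col12a1, Col8a1 and Col6a3), and 1 of them was called higher, Col12a1, against 2.07% of the 7163 genes tested. It was at 2.37 and 12.5 CPM in uninjured libraries, from 1 and 15 UMIs, and at 119 and 107 on day 3, from 11 and 54 UMIs. Days 5 and 7 had 107 and 158 CPM, and no fracture library overlapped an uninjured one. Those values at days 5 and 7 were close to the levels of immune-like nuclei of the same libraries given above. The log2 fold change was 3.49 ± 0.62 (SE; adjusted p 0.0211), and the call was lost without day 3 library 1 (3.35, adjusted p 0.105) and without day 3 library 2 (3.75, adjusted p 0.222).

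**Figure D5:**
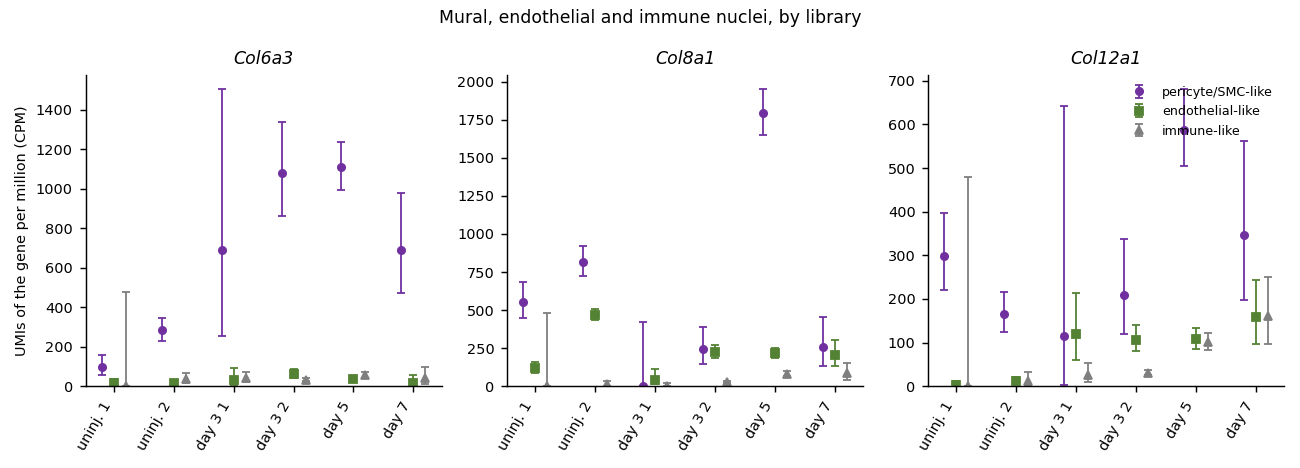
CPM of Col6a3, Col8a1 and Col12a1 by library in pericyte/SMC-like (circles), endothelial-like (squares) and immune-like nuclei (triangles), with exact 95% Poisson intervals. Endothelial-like nuclei have 2.37 and 12.5 CPM of Col12a1 in uninjured and 107 to 158 in fracture libraries, and the interval of day 3 library 1 is wide for pericyte/SMC-like nuclei because there were 4.

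Some stromal markers were also higher at day 3 in endothelial-like nuclei and others were not. Of the 25 stromal markers 8 were higher in both day 3 libraries than in both uninjured ones (Acan, Bmper, Csmd1, Lox, Postn, Prrx1, Runx2 and Tnc), 12 were tested and 3 were called higher (Bmper, Runx2 and Tnc), with 0 called lower. Of the tested markers 4 had a negative log2 fold change (Alpl, Cd34, Fgfr3 and Ly6a), and Pi16, not tested, was at 90.0 and 15.8 CPM in uninjured and 0 and 1.98 in day 3 libraries. The summed level of the 25 was 1004 and 1716 CPM in uninjured and 1991 and 1922 in day 3 libraries, to which Tll1 alone gave 445 and 1151 against 1244 and 821. Col2a1, the cartilage collagen, was at 0 in all 4 libraries, and Sp7 was at 0 in 3 of them. Immune-like nuclei had 11.1 CPM of Col12a1 in uninjured library 2, 26.0 and 30.3 on day 3, 101 on day 5 and 161 at day 7, and uninjured library 1, with 13 immune-like nuclei, had 0. Their part in the endothelial-like result was not tested.

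Col8a1 in endothelial-like nuclei was at 121 and 470 CPM in uninjured libraries, 43.3 and 226 on day 3, 217 on day 5 and 205 at day 7. The groups overlapped, and the log2 fold change at day 3 was -1.06 ± 0.64 (SE; adjusted p 0.449). Without uninjured library 1 Col8a1 was called lower (-1.74, adjusted p 0.00271). Col6a3 was at 18.9 and 17.5 CPM in uninjured and 32.5 and 61.5 in day 3 libraries, a log2 fold change of 1.38 ± 0.55 (SE; adjusted p 0.227), with 3 and 31 UMIs at day 3. The groups did not overlap on day 3, and day 7 had 15.8 CPM.

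Whether the day 3 effect differed between stromal and endothelial-like nuclei was tested with an interaction term, with the library as a block. Of the 8 genes 2 were called, against 5.42% of the 8839 genes tested. The effect on Col12a1 was smaller in stromal nuclei by a log2 difference of -2.45 ± 0.54 (SE; adjusted p 0.000431). In endothelial-like nuclei it started from an uninjured level near that of immune-like nuclei. The effect on Col8a1 was more positive in stromal nuclei, by 2.09 ± 0.44 (SE; adjusted p 0.000216). Both calls were lost without uninjured library 2 (-3.13, adjusted p 0.142, and 0.93, adjusted p 0.572), and that of Col8a1 without day 3 library 2 (2.44, adjusted p 0.115).

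Other collagen genes, receptors and modifying enzymes were read from fixed lists in the stromal comparison of day 3. There 7.90% of the 9313 genes tested were called in either direction. Of the 11 fibrillar collagens, all tested, 2 were called higher and 0 lower. These were Col24a1, at 15.2 and 52.2 CPM in uninjured and 163 and 299.6 in day 3 libraries (log2 fold change 2.45, adjusted p 0.0111), and Col27a1, at 68.2 and 83.3 against 365 and 349 (2.21, adjusted p 0.00652), both fibril-forming collagens of developing skeleton. The median of the list was 1.03 against 0.09 for all genes. Of 10 further FACIT, beaded-filament and short-chain collagens 2 were tested, and Col6a6, which encodes an alternative chain of type VI collagen, was called lower at 90.9 and 38.1 against 0 and 4.45 CPM (-4.12, adjusted p 0.0142).

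Of 15 receptors and binding partners 1 was called higher and 4 lower, with a median of -0.48. The share of all genes called, 7.90% in either direction, applies to this list and to that of collagen synthesis below. Tnc, the tenascin of healing tissue, was at 106 and 164 CPM in uninjured and 1152 and 705 in day 3 libraries (2.78, adjusted p 0.00659). Tnxb, the tenascin that binds fibrils in resting connective tissue, went from 583 and 721 CPM to 23.3 and 22.2 (-4.88, adjusted p 0.000369). Dcn, the proteoglycan decorin, which binds fibrils and type VI and XIV collagen, was at 871 and 2342 against 166 and 454 CPM (-2.43, adjusted p 0.0221), and Itga2, a chain of a collagen-binding integrin, at 68.2 and 53.7 against 0 and 8.89 (-3.28, adjusted p 0.0228). Of 15 genes of collagen synthesis 2 were called higher and 0 lower, P4ha3, a prolyl hydroxylase, at 7.58 and 27.2 against 82.9 and 146 CPM (2.32, adjusted p 0.0186), and Plod2, a lysyl hydroxylase, at 144 and 120 against 417 and 509 (1.85, adjusted p 0.0104), with a list median of 0.89. All 9 genes named were called in the same direction in fibroblast-like and SSPC-like nuclei, where Tnc had the log2 fold change 5.65 and Col24a1 5.12.

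The genes whose levels went most closely with each of the 8 over the 49 units, the 8 themselves left out, are given as a description. For Col12a1 they were Chsy3, a chondroitin synthase (r = 0.88), Wisp1, a matricellular protein (0.87), and Tnn, tenascin-W (0.85). For Col14a1 they were Lmx1a (0.83), Fndc1 (0.80) and Thbs2, a thrombospondin (0.76), for Col16a1 Col1a2 (0.86), Eya4 (0.83) and Sobp (0.82), for Col8a1 Antxr1, a receptor of collagens (0.81), Cald1 (0.81) and Ltbp1, a latent TGF-beta binding protein (0.80), and for Col8a2 Shank1 (0.79), Cdh11, a mesenchymal cadherin (0.78), and Tasp1 (0.75). For the type VI genes they were Ddr2, a collagen receptor (0.84), Scarf2 (0.83) and Prrx1, a factor of limb mesenchyme (0.82) for Col6a1, the fibrillar collagens Col5a1 and Col5a2 (both 0.87) and Ror2 (0.85) for Col6a2, and Prrx1 (0.88), Tbx15 (0.87) and Ddr2 (0.87) for Col6a3. Col8a1 and Col8a2 had r = 0.63 with each other.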

How the data were processed

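Counts of UMIs for every gene in every barcode, not normalized, are what the authors deposited for the 6 libraries, made with Cell Ranger (6.0.0 or 7.1.0 per the file headers) from intronic and exonic reads on mm10. The 13551 barcodes held 55293921 UMIs. Filters kept 8131 nuclei, those in which 200 to 5000 genes had a UMI, mitochondrial UMIs were below 2% and ribosomal UMIs below 1.5%, and 7226 remained after removal of muscle clusters within each library. Clusters led by muscle markers or Pax7 were then left out of the integrated data, leaving 6250. Scrublet in scanpy 1.11.5 marked the top 6% of scores per library as doublets (429 nuclei, 5.28%), which were kept, since the methods name no caller. Libraries were integrated with Seurat 5.3.0 (20 components, resolution 1.3), with the 8 genes and the lists left out of the features, and clusters were named from fixed markers.

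UMIs were summed per library and population and tested with edgeR 4.0.16 (TMM, filterByExpr, quasi-likelihood F-test, Benjamini-Hochberg adjustment over all genes). Alternatives included DESeq2 1.42.0, other scaling, filters and clusterings, and each library left out. The test was also run on simulated counts with the common dispersion of each real fit, 1 value for all genes. Genes that vary more than this between libraries are therefore not covered by it. There, some genes were given a log2 fold change of 2, up or down. Of these, 23.5% were called in the stromal day 3 setting, 36.1% for fibroblast-like and SSPC-like nuclei and 63.2% for endothelial-like nuclei. With all fracture libraries it was 31.7%, and for the interaction 41.1%. Many changes of this size were thus not called. Members and lists were chosen with earlier results of these data known. From each list, up to 4 called genes with the largest change in stromal nuclei at day 3 are named, and for each member the 3 genes with the highest r among those with at least 50 CPM in a unit. R was 4.3.3 and Python 3.11.15.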

Additional observations from a re-analysis of the deposited data

Results flagged for a closer look

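The day 3 effect on Col12a1 differed between stromal and endothelial-like nuclei by a test of the difference itself, with a log2 difference of -2.45 (adjusted p 0.000431, edgeR). Endothelial-like nuclei had 1 and 15 UMIs of Col12a1 in the uninjured libraries, and 3 of the 12 stromal markers tested in those nuclei were called higher at day 3. The day 3 effect on Col8a1 differed between the same populations in the other direction, with a log2 difference of 2.09 (adjusted p 0.000216). Both differences had the same sign without each of the 4 libraries in turn, and both calls were lost without uninjured library 2.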

How the results depend on the processing

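The call of Col12a1 in fibroblast-like and SSPC-like nuclei was kept under all 5 alternatives and with each library left out, with adjusted p between 7.70e-05 and 0.0112 over the former. Counts of genes called moved by over 1.5 times in some. In stromal nuclei at day 3 there were 736, with 1126 without a filter on low counts and 389 from all deposited barcodes. In fibroblast-like and SSPC-like nuclei there were 636, with 392 by DESeq2, in endothelial-like nuclei 302, with 733 without the filter (2 of the 8 genes, with Col8a1 at -1.14, adjusted p 0.0360), and with all fracture libraries 689, with 1746 without the filter (3 of the 8 genes) and 1 of the 8 genes by DESeq2. Signs that turned in the stromal comparison of day 3 belonged to changes that passed no test. With all non-myogenic nuclei Col8a1 was at -0.73 and Col8a2 at -0.25, with all barcodes Col8a1 at -0.048, Col8a2 at -0.028 and Col6a1 at 0.13, and without IIFC-like nuclei Col6a2 at -0.13 and Col6a3 at -0.30.

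With 1 library left out in turn, genes called ranged from 0 to 882 in stromal nuclei (0 without uninjured library 1), 446 to 770 in fibroblast-like and SSPC-like, 4 to 376 in endothelial-like nuclei, 75 to 714 with all fracture libraries and 148 to 425 for the interaction. Of the 8 genes, 0 to 1, 1 to 2, 0 to 2, 0 to 0 and 0 to 2 were called. Log2 fold changes that turned sign ranged in stromal nuclei from -2.60 to 0.13 (Col14a1), -0.16 to 1.51 (Col8a1), -0.28 to 0.55 (Col6a2) and -0.19 to 0.63 (Col6a3), in fibroblast-like and SSPC-like nuclei from -1.99 to 0.63 (Col14a1), -0.72 to 0.026 (Col6a2) and -0.65 to 0.10 (Col6a3), in endothelial-like nuclei from -2.77 to 0.15 (Col8a1), with all fracture libraries from -0.88 to 0.54 (Col14a1) and for the interaction from -1.95 to 2.48 (Col14a1), -2.75 to 4.76 (Col6a1) and -1.77 to 5.87 (Col6a2).

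The highest population was a stromal one for 6 of the 8 genes, for 8 at resolution 0.8 and for 5 without integration. The population itself was kept for 6 genes at resolution 0.8, where Col8a1 and Col8a2 moved from tendon-like to IIFC-like nuclei and no cluster was named tendon-like, and for 5 without integration, where Col12a1 and Col6a1 moved to IIFC-like and Col16a1 to tendon-like nuclei. Of the 24 genes named as closest in pattern, 14 stayed in the top 3 with 1 CPM added in place of 10 and 3 with at least 50 nuclei per unit, and 22 and 13 stayed in the top 10. No paired analysis was possible because the labels give no replicate numbers. Not run were the test of pericyte/SMC-like nuclei with its alternatives and that of fibroblast-like and SSPC-like nuclei without integration, for want of nuclei. Without integration the SSPC-like cluster held 66 and 226 uninjured but 0 and 0 day 3 nuclei, and no cluster was named fibroblast-like. An unnamed cluster, closest to IIFC-like with fibroblast-like second, held 38 and 178 day 3 nuclei. The Col12a1 call in fibroblast-like and SSPC-like nuclei thus rests on the integrated clusters. The alternatives for endothelial-like nuclei other than DESeq2 and single libraries, and those for the interaction other than no filter, were chosen after seeing the data. The cause of these shifts was not tested. Days 5 and 7 had 1 library each, and the tests of day 3 rest on 2 libraries against 2, so a change that did not pass is not shown to be absent.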

Other observations

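Smaller populations held some of the 8 genes too. Luzp2/Cldn1-like nuclei, called by their leading genes, numbered 109 and had 1258 CPM of Col8a1 (interval 1148 to 1375), 374 of Col12a1 and 54.6 of Col14a1. By library their Col8a1 was at 234 and 848 CPM in the uninjured libraries (32 and 34 nuclei) and 3269 at day 5 (22 nuclei), with 10 or fewer nuclei in the rest. Schwann-like nuclei, the glia of peripheral nerve, had 122 CPM of Col16a1 from 28 UMIs (interval 81.0 to 176), which is not apart from fibroblast-like nuclei (126), and 13.1 CPM of Col6a2.

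Adipocyte-like nuclei (53) had 216 CPM of Col6a3 (interval 167 to 274) with 25.8 of Col6a1 and 12.9 of Col6a2, and 0 UMIs of Col14a1, Col8a1 and Col8a2, with an upper limit of the interval of 11.9 CPM. Their Col6a3 was at 84.7 and 192 CPM in the uninjured libraries, from 3 and 43 UMIs, and the fracture libraries held 1 to 6 such nuclei. Osteoclast-like nuclei (85) had 111 CPM of Col12a1 and 88.1 of Col6a3.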
